A study of Agaricus blazei with 33 samples.

Results

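The 8 genes described here encode multicopper oxidases, the family of laccases, in Agaricus blazei, a cultivated litter-decomposing mushroom. Among them, A00941 is placed by the annotation of the study with ferroxidases of the same family, described below. They are A04922, A05207, A01869, A05193, A06810, A06818, A06833 and A00941, which make up 8 of the 20 genes with the domains PF00394, PF07731 and PF07732 among the 10337 genes of the deposited table. All 20 carry all 3 domains, and no description in the table uses the word laccase. The 8 genes were chosen by their levels in mycelia and primordia, either because the study names them or because they changed between these stages, so the mycelium and primordium values are given below as a description without a test.

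Multicopper oxidases pass electrons from a substrate to molecular oxygen through a group of bound copper ions, with water as the product. Fungal laccases are mostly secreted members of this family that oxidise phenols, and they are known for work on lignin and humic material in the growth substrate and for pigment formation and wall cross-linking in fruit bodies. In Agaricus bisporus, a close relative, extracellular laccase is known to be abundant while the mycelium colonises compost and to decline as fruiting begins. Another branch of the family, typified by Fet3 of Saccharomyces cerevisiae, is a ferroxidase that oxidises ferrous iron at the cell surface and hands it to the iron permease Ftr1.

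The study sequenced RNA from strain JA, a heterokaryon, in 33 libraries, 3 for each of 11 conditions. These were mycelia collected 20 days after casing (MY), primordia with an undifferentiated velum (PR), and the whole fruit body, its pileus (cap) and its stipe (stalk) at the button (BU, BU_pil, BU_sti), harvest (HA, HA_pil, HA_sti) and maturation (OP, OP_pil, OP_sti) stages. No group was treated, and the same strain was used throughout. The reads were aligned to the assembly of JA-15036, a monospore isolate of this strain, so transcripts of the other nucleus of the heterokaryon were counted through that genome, and no source used here says whether replicates came from separate fruit bodies or cultures. Adjusted p-values therefore measure the spread between these libraries, which may be technical in part. Values are FPKM, reads scaled by gene length and by a library size that the authors set, and reads on genes numbered 15573864 to 21454052 per library.

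Several libraries stood apart from their groups over all genes. The OP_pil 3 library correlated at a mean of 0.889 with the other OP_pil libraries and at 0.940 with OP_sti, and BU_sti 1 at 0.928 with its own group, 0.942 with BU_pil and 0.964 with PR. Among the whole fruit bodies, BU 2 was closest to BU_sti and BU 1 and BU 3 to BU_pil, while OP 1 was closest to OP_sti (0.979), OP 2 was at 0.940 with OP_sti and 0.927 with OP_pil, and OP 3 was closest to OP_pil (0.955). Labels were kept as given, and the results below that moved most without OP_pil 3 or BU_sti 1 are given with and without it. In tissue samples of this kind, fewer cells of a type and less RNA per cell cannot be told apart.

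The 8 genes lie on 5 contigs of the JA-15036 assembly. A04922 spans 389233 to 391467 of contig 22 on the minus strand, and the other multicopper oxidase A04923 starts 1633 bp further on, on the same strand. A05193 (155459 to 157692) and A05207 (223881 to 226100) are both on the plus strand of contig 25, 66188 bp apart, with A05205 and A05206 of the same family between them. A06810 (1458405 to 1460049, minus), A06818 (1494941 to 1496837, plus) and A06833 (1540603 to 1542548, plus) follow each other on contig 3 with gaps of 34891 and 43765 bp. A01869 is on contig 14 (1013570 to 1015794, minus) and A00941 on contig 12 (633336 to 635737, minus). The table gives whole genes and not exons or untranslated regions, and its gene lengths in this family are multiples of 3, shorter than the spans, as coding lengths would be. Of the 8, the 3 genes on contig 3 are the shortest, at 373, 480 and 427 codons, against 526 to 546 in A04922, A05207, A01869 and A05193, and A00941 is the longest of the 20 at 633 codons. None of the 8 overlaps another gene of the table, but family members lie close together and the counting of reads with several alignments is not described in any source used here, so reads shared between near-identical stretches are an uncertainty in every level below.

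Between mycelia and primordia, the contrast that chose the genes, 4 were lower and 4 higher in primordia. A01869 had 276.8, 263.8 and 104.8 FPKM in mycelia and 0.185, 0.175 and 0.0630 in primordia, the latter from 7, 6 and 2 reads. A05207 went from 576.2, 435.2 and 602 FPKM to 2.65, 4.07 and 4.92, and A04922 from 977.2, 1132 and 654.5 to 17.8, 16.9 and 17.5. A00941, which the annotation of the study places with the Fet3 ferroxidases, went from 14.1, 7.01 and 10.1 FPKM to 0.903, 0.655 and 1.18. On the log2 scale, with 0.1 added to each FPKM, these differences (PR minus MY) were -9.72, -7.11, -5.68 and -3.35. In the other direction, A05193 rose from 0.604, 2.40 and 0.677 FPKM to 217.4, 212.4 and 291.1, a log2 difference of 7.74. A06810 was at 1.57 to 2.12 FPKM in mycelia and 8.27 to 11.2 in primordia (2.31), A06818 at 13.0 to 15.02 and 31.1 to 35.7 (1.24), and A06833 at 4.44 to 7.54 and 10.6 to 13.4 (1.01). In all 8 the mycelium and primordium libraries did not overlap, which the choice of genes favours. The rule has no strict threshold, since the non-members A03364 (-1.88), A05293 (-1.54) and A05252 (-1.31) changed by more than A06833 and A06818, and A07534 (-0.97) by about as much as A06833.

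**Figure D1:**
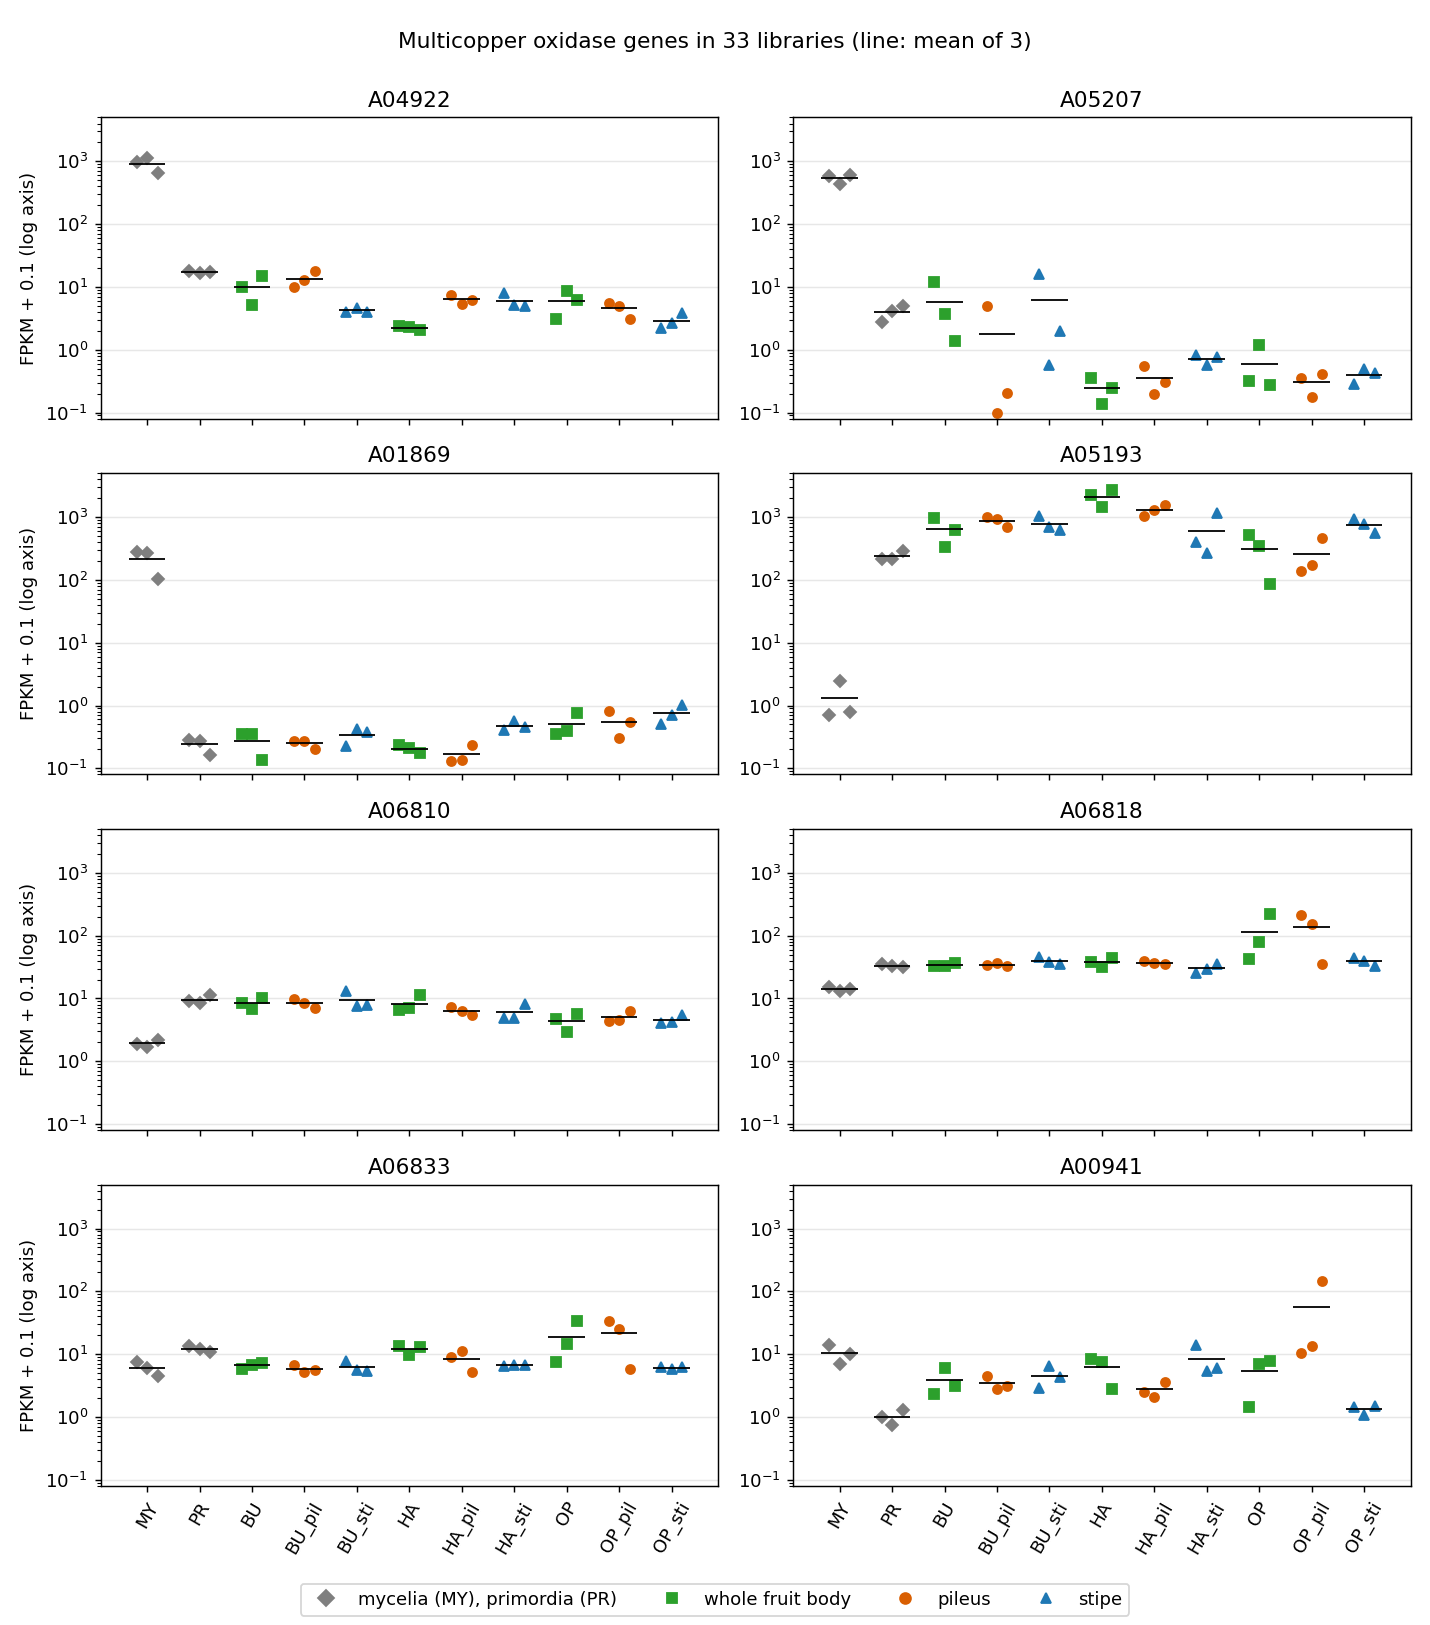
FPKM plus 0.1 (log axis) of the 8 genes in each of the 33 libraries by condition. Each point is 1 library and each line the mean of 3. A04922, A05207 and A01869 are highest in the 3 mycelium libraries, where they reach 1132, 602 and 276.8 FPKM, and A05193 is lowest there. A06818 and A06833 are high in part of the maturation libraries, and A00941 has a single high library, OP_pil 3.

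After the primordium stage, the 3 genes of the mycelium stayed low in all 27 fruit body libraries. A01869 lay between 0.0289 and 0.930 FPKM, with 216 reads in the 27 libraries together, and it was the only gene of the 8 that fell below the filter of a mean of 0.5 FPKM, so it was not tested. The 11 conditions put MY first for this gene at 215.1 ± 95.8 FPKM (SD, n = 3), followed by OP_sti at 0.654 ± 0.259, and below MY no condition was separate from the next in the order. A05207 had a median of 0.320 FPKM over the 27 libraries and a highest value of 16.0. Its level at the button stage differed widely between libraries, with 4.86, 0 and 0.102 FPKM in BU_pil, 16.0, 0.463 and 1.90 in BU_sti and 11.9, 3.56 and 1.30 in the whole body. The value listed at 0 came from 0 reads, and 3 reads there would have given 0.0848 FPKM. At harvest and maturation A05207 was at 0.0374 to 1.11 FPKM in every library, and none of its 13 comparisons was called. The comparison of BU_pil with BU_sti gave a log2 difference of -2.497 ± 1.23 (SE, limma adjusted p = 0.133), which without BU_pil 1 was -4.21 (adjusted p = 0.00864) and passed, and without BU_sti 1 was -1.19 (adjusted p = 0.440). Averaged over the 3 stages its difference of -1.35 (adjusted p = 0.107) passed at -1.92 without BU_pil 1 and at -1.72 without BU_sti 2, and was -0.91 without BU_sti 1 (adjusted p = 0.219).

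A04922, the highest laccase-type gene of the mycelium, kept a low level in the fruit body that differed between pileus and stipe at the button stage. BU_pil had 9.89, 12.7 and 18.01 FPKM and BU_sti 3.90, 4.58 and 3.94, so that every pileus library was above every stipe library. The log2 difference was 1.65 ± 0.295 (limma adjusted p = 0.00129), and it was 1.42 to 1.85 under the 30 alternatives tried, called in each. A04922 was the only called gene of the 7 tested in this comparison, where 17.9% of all 9338 genes tested were called. At harvest the pileus (7.42, 5.32 and 6.11 FPKM) and the stipe (7.92, 5.04 and 4.94) overlapped, with a log2 difference of 0.10 ± 0.295 (adjusted p = 0.801). At maturation the pileus was at 5.45, 4.97 and 2.98 FPKM and the stipe at 2.11, 2.60 and 3.74, a log2 difference of 0.64 (adjusted p = 0.0909). Averaged over the 3 stages the difference was 0.79 ± 0.170 (adjusted p = 0.000897), past the p threshold but under the log2 difference of 1 that a call required, and none of the 7 genes was called in that comparison (25.9% of all genes). The change of the pileus-stipe difference from button to harvest was -1.55 (adjusted p = 0.0531), again not called among 0 of 7 genes with a background of 2.94%. Without OP_pil 3, which is in the fit only as a source of spread for this comparison, that adjusted p became 0.0113, and without HA_sti 3 it became 0.04996.

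Within the stipe, A04922 fell from harvest to maturation by 1.06 on the log2 scale (limma adjusted p = 0.0241), with no overlap between the 3 libraries of each stage. A00941 fell in the same comparison, so 2 of 7 genes were called beside 8.47% of all genes. The A04922 call was lost without HA_sti 1 (-0.84), OP_sti 1 (-0.88) or OP_sti 2 (-1.02), and with a pseudocount of 1 (-0.87). In the pileus, A04922 was 1.06 lower on the log2 scale at harvest than at button (adjusted p = 0.115), a comparison in which 0 of 7 genes and 0.728% of all genes were called, and without OP_pil 3 the same difference had an adjusted p of 0.0280. In the stipe between button and harvest its log2 difference was 0.49 (adjusted p = 0.248), and there too 0 of 7 genes were called, beside 12.0% of all genes. The neighbour A04923, which shares the contig and strand, also fell in the stipe from harvest to maturation (-2.29, limma adjusted p = 0.00170). From mycelia to harvest its levels ran otherwise than those of A04922. It had 586.4 to 927.1 FPKM in mycelia and 625.2 to 992.6 in primordia, and its highest values, 2786 to 5252, in HA.

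A05193 was the gene of the 8 that fruit bodies carried at high level throughout, between 85.3 and 2721 FPKM in the 27 libraries with a median of 691.4. By condition means it ranked HA (2123 ± 649.6 FPKM, SD, n = 3), HA_pil (1290 ± 255.7), BU_pil (873.1 ± 167), BU_sti (777.1 ± 219.9), OP_sti (759.7 ± 194.7), BU (638.7 ± 313.5), HA_sti (603.6 ± 470), OP (315.2 ± 214.7), OP_pil (261.6 ± 182.2), PR (240.3 ± 44.1) and MY (1.23 ± 1.01). The libraries of neighbouring conditions in this order overlapped except between HA_pil and BU_pil and between PR and MY. At the button stage the pileus (1006, 927.3 and 685.7 FPKM) and the stipe (1027, 691.4 and 613) did not differ beyond their spread, with a log2 difference of 0.19 ± 0.486 (limma adjusted p = 0.794).

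At harvest A05193 was higher in the pileus, with 1033, 1292 and 1544 FPKM against 400.1, 269.7 and 1141 in the stipe. HA_sti 3 lay above HA_pil 1, so the groups overlapped. The log2 difference was 1.35 ± 0.486 (limma adjusted p = 0.0304), the only call among the 7 genes beside 31.6% of all genes. This call was lost without HA_pil 2 (1.34, adjusted p = 0.0653), HA_pil 3 (1.22, 0.0937), HA_sti 1 (1.20, 0.0981) or HA_sti 2 (0.91, 0.155), and in a fit of all 33 libraries (adjusted p = 0.0562). Without OP_pil 3 it was kept at the same log2 difference and A00941 was called as well, lower in the pileus by 1.53 on the log2 scale (adjusted p = 0.00250, against 0.0877 with all 18 libraries). So 2 of 7 were called in that setting, for which the share of all genes called is not given here.

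At maturation the direction was the opposite. A05193 had 138.5, 175.5 and 471 FPKM in OP_pil and 942.8, 781.2 and 555.1 in OP_sti, with every stipe library above every pileus library. The log2 difference, pileus minus stipe, was -1.72 ± 0.486 (limma adjusted p = 0.0118), and it was -2.25 without OP_pil 3 (adjusted p = 0.000702), whose 471 FPKM was the pileus value nearest to the stipe. Without OP_pil 1 (-1.37, 0.0657) or OP_pil 2 (-1.54, 0.0524) the gene was not called. The change of the pileus-stipe difference from harvest to maturation, tested as an interaction, was -3.07 ± 0.688 (adjusted p = 0.0169), and it was called in each of the 30 alternatives, at -3.67 to -2.63. Inside the pileus A05193 fell from harvest to maturation (log2 difference -2.497, adjusted p = 0.0015004), called in each alternative at -3.03 to -2.15, while in the stipe the difference was 0.58 (adjusted p = 0.449). In the whole fruit body it went from 2215, 1432 and 2721 FPKM at harvest to 510.6, 349.8 and 85.3 at maturation, a fall of 3.05 on the log2 scale (adjusted p = 0.0210). That was the only call among the 7 genes, beside 13.4% of 9316 genes tested, and it was lost without HA 1 (-2.99, adjusted p = 0.0641), HA 3 (-2.84, 0.0807) or OP 2 (-3.30, 0.0581). From button to harvest the whole fruit body gave a log2 difference of 1.81 (adjusted p = 0.254) although the libraries did not overlap, and 0 of 7 genes were called beside 0.236% of all genes. The lowest whole-body value at maturation, 85.3 FPKM, was in OP 3, the library closest to OP_pil, and the highest, 510.6, in OP 1, the library closest to OP_sti.

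**Figure D2:**
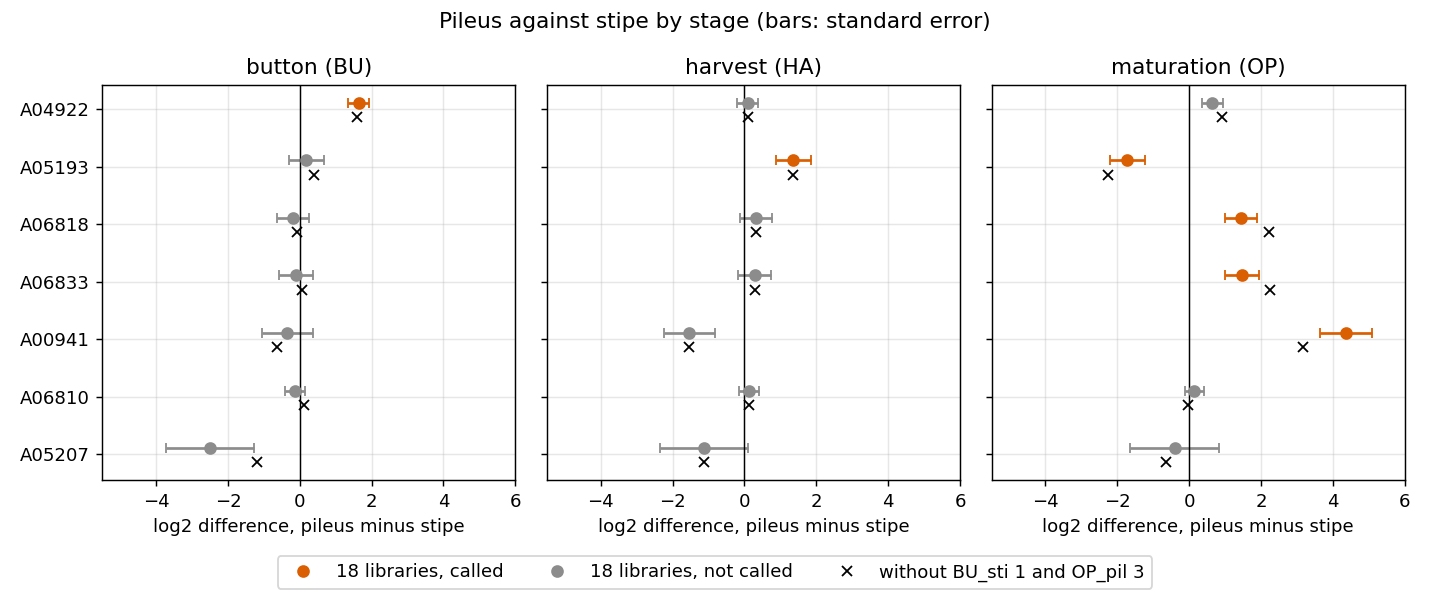
Log2 difference between pileus and stipe (x axis) for the 7 tested genes at each stage, with the standard error of the fit of 18 libraries (n = 3 per group). Orange points were called (adjusted p under 0.05 and a log2 difference of at least 1), and crosses are the values without BU_sti 1 and OP_pil 3. A05193 is at 1.35 at harvest and -1.72 at maturation, and A00941 moves from -1.53 to 4.37.

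A06818 and A06833, the pair of short oxidases on contig 3, were both high in part of the maturation libraries. A06818 lay between 25.2 and 45.04 FPKM in every primordium, button and harvest library. At maturation OP_pil had 215.6, 153.8 and 35.4 FPKM and OP_sti 44.6, 40.1 and 32.3. OP_pil 1 and OP_pil 2 were thus more than 3 times as high as any stipe library, whereas OP_pil 3 lay within the stipe range. The log2 difference was 1.45 ± 0.439 (limma adjusted p = 0.0169) with all libraries and 2.23 without OP_pil 3 (adjusted p = 2.4e-07). The call was lost without OP_pil 1 (0.93, 0.0994), OP_pil 2 (1.18, 0.0830) or OP_sti 3 (1.32, 0.0572).

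A06833 was at a lower level and varied more before maturation, with 10.6 to 13.4 FPKM in primordia, 5.10 to 6.59 in BU_pil and 9.55 to 13.5 in HA. At maturation OP_pil had 33.6, 24.7 and 5.77 FPKM and OP_sti 6.08, 5.74 and 6.23, so OP_pil 3 again lay within the stipe range. The log2 difference was 1.48 ± 0.468 (limma adjusted p = 0.0210), and 2.24 without OP_pil 3 (adjusted p = 1.0e-05). The call was lost without OP_pil 1 (0.98, 0.120), OP_pil 2 (1.20, 0.0958), OP_sti 1 (1.48, 0.0502) or OP_sti 2 (1.44, 0.0563). Together with A05193 and A00941 these genes made 4 of 7 called between pileus and stipe at maturation, 3 higher and 1 lower in the pileus, beside 25.1% of all genes tested. Leaving out OP_pil 1 or OP_pil 2 brought the count of members to 1, and the share of all genes called in those settings is not given here. Without OP_pil 3 the count was again 4, but there a larger share of all genes was called, as given below.

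Over the stages in the pileus, A06818 rose from harvest (39.3, 37.0 and 34.9 FPKM) to maturation by 1.51 on the log2 scale (limma adjusted p = 0.0167). It was called together with A05193 and A00941, 3 of 7 genes, beside 18.4% of all genes. Without OP_pil 3 its rise was 2.30 (adjusted p = 8.0e-07), and without OP_pil 1 (0.99, 0.0707), OP_pil 2 (1.24, 0.0624) or HA_pil 3 (1.47, 0.0503), or with library totals as the scaling (1.10, 0.0967), it was not called. For A06833 the same difference was 1.08 (adjusted p = 0.0896), and it passed without OP_pil 3 (1.84, adjusted p = 0.000156) and with quantile normalization (1.26, 0.0354). The whole fruit bodies at maturation ran through the same range, with 42.5, 77.7 and 221.4 FPKM of A06818 and 7.36, 14.6 and 33.3 of A06833 in OP 1, OP 2 and OP 3. For A06818 the whole-body difference from harvest was 1.25 (adjusted p = 0.120), and 1.79 without OP 1 (adjusted p = 0.0261), where A04922 (1.72, 0.0409) was called as well. The condition means of A06818 and A06833, as log2(FPKM + 0.1), correlated at 0.748 over the 11 conditions. A06810 on the same contig was at 0.212 with A06818 and 0.042 with A06833. These correlations are a description only, since they include mycelia and primordia, whose difference chose the genes. The OP and OP_pil means also mix high and low libraries.

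A06810, the shortest of the 20 genes, was the steadiest of the 8 in the fruit body, between 2.79 and 13.0 FPKM in the 27 libraries. Its means ran from 9.48 ± 1.497 FPKM (SD, n = 3) in PR and 9.41 ± 3.10 in BU_sti down to 4.49 ± 0.757 in OP_sti and 4.30 ± 1.39 in OP, with only MY (1.82 ± 0.276) separate from its neighbour. None of its 13 comparisons was called, and the log2 differences lay between -0.93 and 0.27. The whole-body fall from harvest to maturation (-0.93, limma adjusted p = 0.0985) became -1.13 without OP 3 (adjusted p = 0.0484).

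A00941, the Fet3-type gene, followed a course of its own. It was between 0.968 and 13.7 FPKM in 26 of the 27 fruit body libraries and at 143.7 FPKM, from 3913 reads, in OP_pil 3. At harvest the stipe was the higher side (13.7, 5.38 and 6.01 FPKM against 2.45, 1.98 and 3.51 in the pileus) without overlap, and the log2 difference of -1.53 ± 0.720 was not called with all 18 libraries (limma adjusted p = 0.0877) but was with quantile normalization (0.0397). Averaged over the stages its difference of 0.83 (adjusted p = 0.0905) passed at 1.07 without OP_pil 1 (adjusted p = 0.0264) and was 0.43 without OP_pil 3 (adjusted p = 0.0903). At maturation the pileus had 10.2, 13.7 and 143.7 FPKM and the stipe 1.35, 0.968 and 1.38, from 32 to 43 reads per stipe library, with every pileus library above every stipe library. The log2 difference was 4.37 ± 0.720 (adjusted p = 0.000419), and 3.18 without OP_pil 3 (adjusted p = 1.8e-05). It was called in each of the 30 alternatives, so the difference did not rest on the high library, although its size did.

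The pileus-stipe difference of A00941 changed by 5.91 ± 1.02 on the log2 scale from harvest to maturation (limma adjusted p = 0.00408) and by 4.72 from button to maturation (adjusted p = 0.00899, but 0.0557 with voom on the reads read back from the FPKM). Without OP_pil 3 these changes were 4.71 (adjusted p = 9.3e-05) and 3.52 (adjusted p = 0.000284). From harvest to maturation, 2 of 7 genes were called (A05193 and A00941) beside 5.70% of all genes, and from button to maturation 1 of 7 (A00941) beside 9.38%, with A05193 (-1.90) passing there without HA_sti 3 (adjusted p = 0.0381, against 0.0863). Without OP_pil 3 each of these comparisons called 4 members (A05193, A00941, A06818 and A06833), while 1334 and 2202 of 9348 genes were called over the whole table against 532 and 876 of 9338 with it. Both parts of the fruit body moved. In the pileus A00941 rose from harvest to maturation by 3.35 (adjusted p = 0.00285), or 2.15 without OP_pil 3 (adjusted p = 0.00108). In the stipe it fell by 2.55 (adjusted p = 0.0260), a call lost without HA_sti 1 (-2.13, 0.103), OP_sti 1 (-2.62, 0.0644), OP_sti 2 (-2.40, 0.0795) or OP_sti 3 (-2.64, 0.0634), and with voom (-2.61, 0.149) or a pseudocount of 1 (-1.97, 0.0586). In the whole fruit body, A00941 was at 1.33, 6.88 and 7.75 FPKM at maturation and overlapped with harvest, at 2.67 to 8.17.

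The gene after A00941 on contig 12 is A00943, which has the iron permease FTR1 domain and starts 584 bp away on the opposite strand, so the pair is arranged head to head. A00943 was at 7.62 to 41.6 FPKM in 32 libraries and at 225.4 FPKM in OP_pil 3, the library in which A00941 was also highest. Outside that library the genes ran in parallel only in part. A00943 had 36.7 to 41.6 FPKM in primordia, where A00941 had its lowest condition mean (0.912 ± 0.262 FPKM). Within MY, BU, HA_sti and OP the 3 libraries ranked alike in both genes, and within PR, BU_pil, BU_sti, HA, HA_pil and OP_sti they did not. Between OP_pil and OP_sti the log2 difference of A00943 was 1.74 ± 0.725 (limma adjusted p = 0.0661), but 0.42 without OP_pil 3 (adjusted p = 0.205). From harvest to maturation the whole fruit body fell by 1.37 (adjusted p = 0.0104). Over the 9 genes with domains of iron or copper uptake (the permease, copper transporters and ferric reductases), 2 were called higher and 1 lower in the pileus at maturation, beside 25.1% of all genes called, with a median log2 difference of 0.58 (0.42 without OP_pil 3, with the same counts) against 0.01 over all genes tested. The 3 were ferric reductase-type genes, A00066 (2.25, or 1.39 without OP_pil 3) and A03767 (1.66) higher and A00196 (-1.20) lower, in an enzyme class that in Saccharomyces cerevisiae reduces ferric iron before its uptake. Domains alone placed them in the list, and a role in iron uptake was not tested. At harvest 1 was higher (A00066) and 1 lower (A00196) beside 31.6% of all genes, and at button 2 and 2 beside 17.9%.

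**Figure D3:**
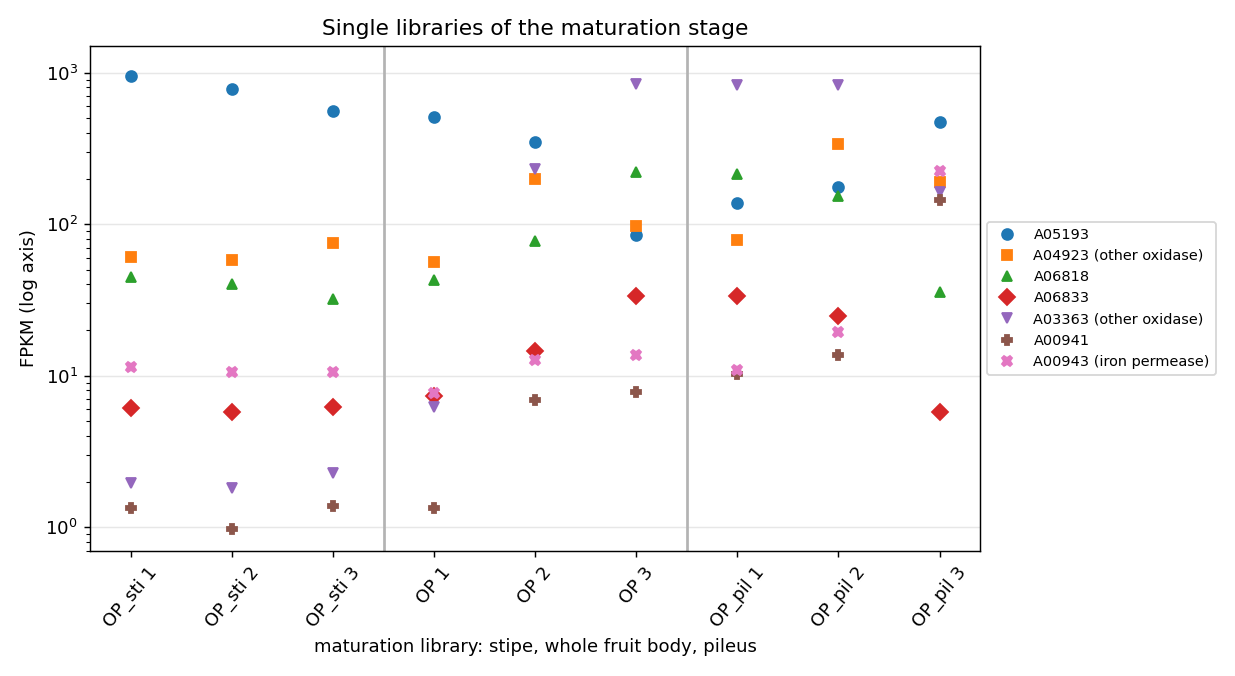
FPKM (log axis) of 4 of the 8 genes, of the multicopper oxidases A04923 and A03363 and of the iron permease gene A00943 in each of the 9 libraries of the maturation stage, 1 point per library. A06818 and A06833 are high in OP_pil 1, OP_pil 2 and OP 3 and within the stipe range in OP_pil 3, where A00941 (143.7 FPKM) and A00943 (225.4 FPKM) have their highest values.

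The remaining 12 multicopper oxidase genes, all of which were tested, put these levels in context. Of these, 5 were called higher and 1 lower in the pileus at harvest (31.6% of all genes called), 2 higher and 1 lower at maturation (25.1%), and 1 higher and 2 lower at button (17.9%), with median log2 differences of 0.70, 0.16 and 0.06 against 0.01 over all genes at each stage. Without OP_pil 3, 5 were called higher and 1 lower at maturation, where 3486 of 9348 genes were called. A04923 and A03363 had the highest means of the 12 over the 27 fruit body libraries. A03363 was at 1.27 to 20.9 FPKM in all button and harvest libraries, then at 833, 834.6 and 162.3 FPKM in OP_pil and 1.94, 1.81 and 2.27 in OP_sti, a log2 difference of 7.85 ± 0.584 (limma adjusted p = 3.1e-06), or 8.63 without OP_pil 3 (adjusted p = 1.2e-08). Like A06818 and A06833 it was lowest of the pileus libraries in OP_pil 3, but there it still exceeded the stipe. A04923 was higher in the pileus at harvest (log2 difference 2.51, adjusted p = 0.000229) and fell from harvest to maturation in the pileus by 3.38 and in the stipe by 2.29 (adjusted p = 2.8e-05 and 0.00170). A05193 fell in the same pileus comparison, while its stipe libraries at the 2 stages overlapped. Of the 21 genes with haem peroxidase domains, a class that includes the lignin-modifying peroxidases of fungi, 19 were tested, and 6 were called higher and 1 lower in the pileus at maturation, beside 25.1% of all genes, with a median of -0.02. Without OP_pil 3 these were 6 higher and 4 lower, with a median of -0.18.

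The 20 genes together summed to 2705 ± 383.4 FPKM (SD, n = 3) in mycelia, 1381 ± 231.7 in primordia, 6356 ± 599.8 in HA, 3309 ± 249.9 in HA_pil, 1087 ± 540.2 in HA_sti and 985.7 ± 195.9 in OP_sti. Every HA library (5689 to 6851) summed to more than every HA_pil (3023 to 3485) and HA_sti library (718.4 to 1707). A04923 alone did the same, at 2786 to 5252 FPKM against 1730 to 1921 and 275.2 to 411.1. Why the whole body lay above both of its parts was not tested. The gene with the largest share of this sum, averaged over the 3 libraries, changed with the stage. A04922 led in MY with 28.9% to 38.1% of the sum, A04923 in PR, BU, BU_pil, BU_sti, HA and HA_pil, A05193 in HA_sti, OP and OP_sti, and A03363 in OP_pil. The share of A05193 was 0.0210% to 0.0806% in mycelia, 14.5% to 19.1% in primordia, 37.5% to 66.9% in HA_sti and 71.2% to 80.6% in OP_sti. In the whole bodies at maturation its share ran from 5.86% to 69.9%, and there the mean FPKM of A03363 (361.2) was above that of A05193 (315.2).

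**Figure D4:**
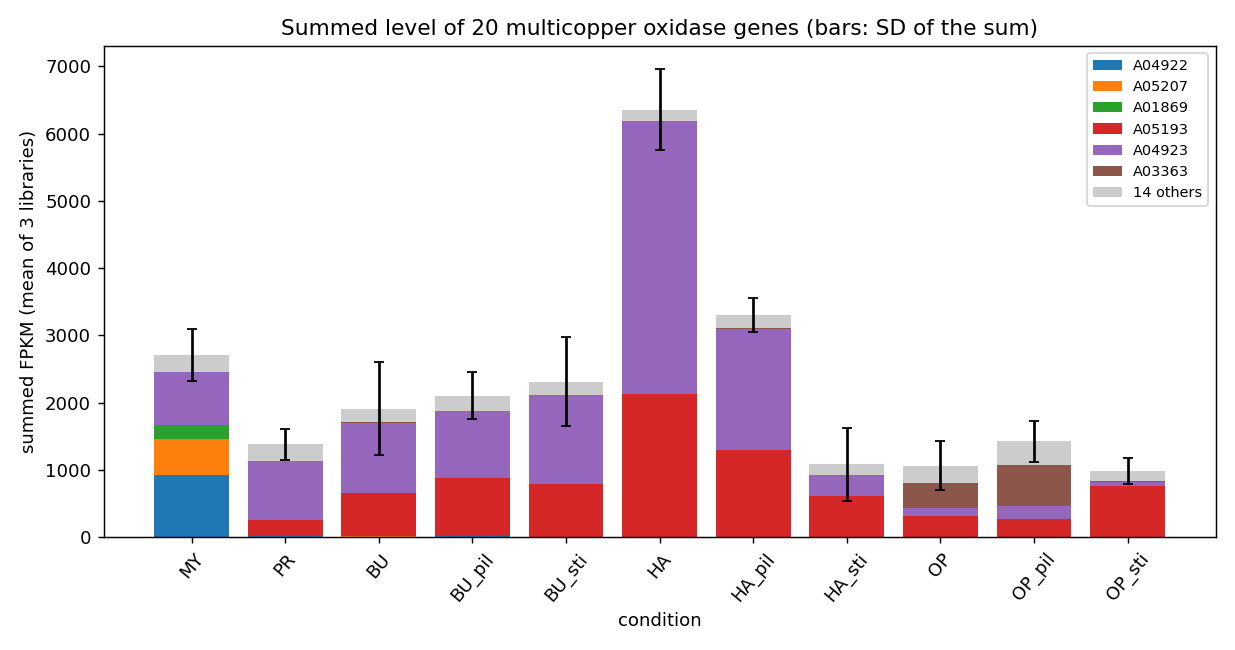
Summed FPKM of the 20 multicopper oxidase genes by condition, as stacked means of 3 libraries with the SD of the sum. The sum is 2705 in MY, where A04922, A05207 and A01869 hold the lower part of the bar, and 6356 in HA, where A05193 and A04923 hold most of it. The parts of the fruit body at harvest sum to less, 3309 in HA_pil and 1087 in HA_sti.

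Whole fruit bodies contain the pileus and the stipe, and their values were set beside those of the parts. At harvest all 3 whole-body libraries of A04922 (2.29, 2.19 and 1.94 FPKM) lay below every pileus and stipe library (4.94 to 7.92). That was 1 of the 6 members with a mean of at least 0.5 FPKM at that stage, beside 11.5% of all genes whose whole-body libraries lay above or below every library of the parts. A05193 was higher in HA than in HA_pil by its mean, but HA 2 (1432 FPKM) was below HA_pil 3 (1544 FPKM). At button and maturation no member lay outside its parts, beside 0.345% and 0.947% of all genes. No source used here gives the composition of the whole-body samples, and its part in these values was not tested.

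For each gene with a mean of at least 10 FPKM in some condition, the most similar profiles were sought over the 11 condition means among 8502 genes, which share libraries and so give a description only. The means include mycelia and primordia, whose difference chose the genes. For A04922, A05207, A01869 and A05193 the large step between mycelia and all other conditions weighs heavily in r. A05193 was most like A04338, a gene with an NADH:flavin oxidoreductase domain (Pearson r = 0.988, n = 11 conditions), A00469 (0.978) and A04049 (0.977), an acetyltransferase-type gene. A04922 was nearest to A06257 (0.979) and to the cytochrome P450 genes A09612 (0.976) and A09582 (0.975), and A01869 to the LysM domain gene A01109 (0.992), whose highest mean was also in mycelia. The nearest to A06818 were A04311 (0.965), A04391 (0.954) and A03099 (0.951), and to A06833 A09887 (0.879), a nucleotide-sugar transporter type, A08234 (0.877) and A01673 (0.831), all 6 highest in OP_pil. A00941 had no profile above 0.898. Beside A05193 on contig 25, 228 bp away and transcribed towards it, lies A05194, a gene of 411 coding bases without a described domain. Its means were 12.4 FPKM in mycelia and 10070 in primordia, and at maturation it was at 536.5, 1172 and 2228 FPKM in OP_pil and 2117, 2627 and 1328 in OP_sti. The library kit is not described as marking strand, so reads from the 2 strands between these genes cannot be told apart.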

How the data were processed

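The deposited table holds FPKM for 33 libraries (3 in each of 11 conditions). The authors trimmed the paired reads, used Hisat2 against the JA-15036 genome, added StringTie gene models and counted reads with featureCounts (1.5.0-p3 in the submitters' processing notes). No source used here gives the strand setting, the multi-mapping rule or the FPKM formula. FPKM times length came out whole, within 0.001 of a read, for 100% of values, so reads were read back; the library size used by the authors was 0.742 to 1.22 times the reads on genes, which carries a scaling that moves every level. No pair of libraries agreed within counting noise (chi-square over its degrees of freedom: 24.5 to 1035), and read limits cover counting error only.

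Since FPKM are not counts, limma 3.58.1 (R 4.3.3) with a trended prior was run on log2(FPKM + 0.1). Genes whose mean over the fitted libraries was below 0.5 FPKM were left out. One fit held the 18 pileus and stipe libraries (11 contrasts) and another the 9 whole fruit bodies (2 contrasts). P-values were adjusted by Benjamini-Hochberg over all genes of a contrast, and calls required an adjusted p under 0.05 together with a log2 difference of 1 or more, up or down. Fold changes on this scale understate those of low genes. The fit was tested on simulated counts with a single fixed setting of spread and no libraries that stand apart, so that test does not cover the spread of these libraries. Summaries used Python 3.11.15.

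The members, gene lists (by Pfam domain) and tests were chosen with earlier results of these data known. Named besides the 8 genes are the 2 other family members with the highest mean, the neighbouring genes and the 3 most similar profiles; iron reductase genes, the family members beside the margin of the rule, and A05194 and A00943 values by library were chosen for the text after they were seen. Mycelia and primordia were compared in no test and enter only the alternative fit of all 33 libraries. Alternatives were other pseudocounts, filters and scalings, no trend, all 33 libraries in 1 fit, a replicate block, voom on the reads and each library left out. Leaving out BU_sti 1 and OP_pil 3 together, and either one for the genes of the lists, was chosen after seeing the data. The replicate numbers were not found to pair samples.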

Additional observations from a re-analysis of the deposited data

Results flagged for a closer look

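The pileus-stipe difference of 2 genes changed between stages by a test of the change itself. For A05193 it changed from harvest to maturation by -3.07 on the log2 scale (limma adjusted p = 0.0169). At harvest 2 of 3 pileus libraries were above every stipe library, and at maturation 3 of 3 were below. For A00941 it changed by 5.91 from harvest to maturation (adjusted p = 0.00408) and by 4.72 from button to maturation (adjusted p = 0.00899), and the maturation pileus was higher in 3 of 3 libraries. Groups of 3 libraries are too small for a test of single outlying samples, so OP_pil 3 is described by its values only.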

How the results depend on the processing

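None of the 15 called single-gene results changed sign in the alternatives tried (440 values), and 408 of these values kept the call while 32 lost it; 6 results were called in every alternative. The number of members called in a comparison moved as follows, and the cause was not tested. Counts over all genes moved with the setting too and are given for some settings. Where none stands beside it, a member count is not a result about these genes. Between pileus and stipe at harvest, 2 members were called with no filter, with quantile normalization and without both BU_sti 1 and OP_pil 3 (1 as reported), and for the mean over stages 2 with library totals (0 as reported). Over all genes, 3051 of 10337 were called at harvest with no filter and 2892 of 9338 with quantile normalization (2949 of 9338 as reported). For the mean over stages, 2520 of 9338 were called with library totals (2419 as reported). For the change from button to harvest, 1 was called with a pseudocount of 1, quantile normalization, no trend and without both libraries (0 as reported). Over all genes, 278 of 9338 were called with that pseudocount, 295 with quantile normalization and 286 with no trend (275 as reported). Without both libraries, 4 were called for each change to maturation (2 from harvest and 1 from button as reported) and 1 in the pileus from button to harvest (0 as reported). With voom, 0 were called for the change from button to maturation and 1 in the stipe from harvest to maturation, where a pseudocount of 1 gave 0. Over all genes, that pseudocount called 680 of 9338 in the stipe comparison (791 as reported). With all 33 libraries in 1 fit, 3 were called in the whole fruit body from button to harvest (0 as reported) and 4 from harvest to maturation (1 as reported). A01869 is 1 of those 4 (log2 difference 1.21, limma adjusted p = 0.0381), from 7, 8 and 19 reads in OP and 4, 3 and 2 in HA. Under the filter elsewhere, it entered that fit only through its mycelium level, which the choice of genes used. Its calls in that fit are therefore not a result about this gene. At harvest A01869 is the second member called between pileus and stipe with no filter (-1.56, 0.00437) and the only one with all 33 libraries (-1.56, 0.00715), where A05193 was lost. Those harvest values came from 1, 1 and 4 reads in HA_pil and 7, 14 and 10 in HA_sti. In the pileus from harvest to maturation, the 3 calls became 2 with library totals and without HA_pil 3, OP_pil 1 or OP_pil 2, and 4 with quantile normalization, without OP_pil 3 or without both libraries, and, A01869 included, with no filter and all 33 libraries. Over all genes, 2147 of 9338 were called with library totals, 1717 with quantile normalization and 1721 of 10337 with no filter (1720 of 9338 as reported). With single libraries left out, the counts ran from 1 to 2 between pileus and stipe at button, 0 to 2 at harvest, 1 to 4 at maturation and 0 to 1 for their mean, from 0 to 1, 2 to 4 and 1 to 4 for the changes from button to harvest, harvest to maturation and button to maturation, from 0 to 1 in the pileus from button to harvest, 0 to 2 in the stipe from harvest to maturation, and from 0 to 3 in the whole fruit body from harvest to maturation. The replicate numbers were not found to pair the libraries, which these few values cannot exclude. Correlations between same-numbered deviations were -0.0308 to 0.208 between pileus and stipe of a stage, and -0.491 to 0.384 with pairs across stages included. With a replicate block no call changed, and A04922 between pileus and stipe at button had a limma adjusted p of 0.00316 at the same log2 difference of 1.65. Depth limits A01869 most, with 1 to 23 reads in each later library.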
